A study of Mus musculus with 10 samples.

Results

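Genes of leukocyte surface molecules, integrins, chemokines, interleukins, their receptors, Toll-like and Fc receptors, and the interferon response were followed in mouse liver. They were the mouse genes whose symbols begin with Cd and a digit, Itga, Itgb or Itgm, Ccl and a digit, Cxc, Ccr, Il and a digit, Tlr, Fcgr, Irf or Stat and a digit, Ifi, Gbp, Oas, Tap1 or Tap2, without Cd74 and Cd68. Of 7409 genes with a named probe 128 met this rule, through 154 of the 24048 probes on the array, and each gene was read from its brightest probe. Of these 128 genes, 59 stood above the noise on at least 5 of 10 arrays, 23 on 1 to 4 arrays and 46 on none. Matching by letters also took in genes of other function, among them Cd3eap, a subunit of RNA polymerase I, and Il4i1, an amino acid oxidase.

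The samples were livers of 5 female mice heterozygous for Gyk and of 5 female C57Bl/6J wildtype mice, each hybridised to its own Illumina bead array. All mice were 23 weeks old and had eaten chow with 4% fat until 11 weeks of age and with 6% fat afterwards. Gyk, the X-linked gene of glycerol kinase, is silenced with its X chromosome in a part of female cells, so heterozygous liver is a mosaic. What the altered allele is, and the genetic background of the heterozygous mice beyond their label, were not given in the sources used here.

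Liver holds resident macrophages (Kupffer cells), sinusoidal endothelium and passing lymphocytes among its hepatocytes, and much of the interferon machinery is also made by hepatocytes themselves. Interferons bind receptors whose JAK kinases switch on STAT factors. Activated STAT complexes bind interferon-stimulated response elements, with IRF9 as a partner, and gamma-activated sites. Chemokines guide leukocytes through receptors on their surface, while integrins and tetraspanins organise adhesion at the membrane.

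The arrays had medians between 14 and 24 intensity units, and noise thresholds between 22.0 and 41.2. A probe counted as above noise where it passed the one-sided 0.05 point of its array's noise, taken from the values below 0. Hepatocyte transcripts were abundant, with Apoa1 at 44683.3 ± 4949 in heterozygous and 51225.6 ± 2662 in wildtype liver (SD, n = 5 each). These means are before normalization, and the normalized log2 change of Apoa1 was -0.0057 (limma adjusted p 0.986). The Gyk probe had 319.7 ± 90.1 in heterozygous and 558.7 ± 209 in wildtype liver (SD, n = 5 each), a log2 change of -0.65 with a limma adjusted p of 0.332. The arrays of heterozygous replicate 1 and wildtype replicate 1 stood apart, with a correlation of 0.991 to each other against 0.934 to 0.967 with the other 8, so results that rest on them are also given without both. Replicate numbers follow the order of the labels and carry no meaning.

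**Figure D1:**
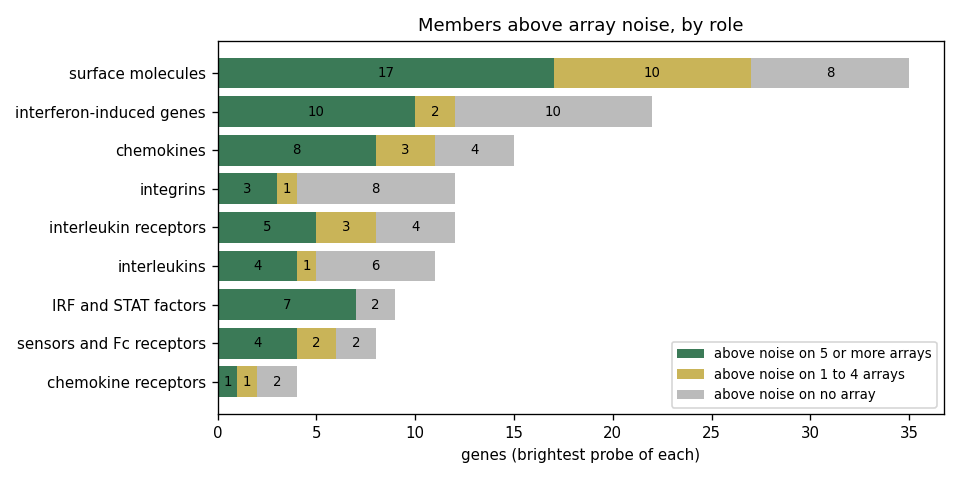
Horizontal bars give the number of genes of each role, read from the brightest probe, split by how many of 10 arrays put that probe above noise. The class of IRF and STAT factors, with Irf2bpl counted in it, was above noise for 7 of 9 genes and integrins for 3 of 12.

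The share of these genes above noise was 46.1%, against 50.3% of all named genes. The brightest were Cd81, a tetraspanin and a partner of the B cell co-receptor, at a mean intensity of 10655.8, and Ifitm1, an interferon-induced membrane protein, at 10225.9. Mean intensity was at least 1000 for 9 of the 59 genes, between 100 and 1000 for 25 and under 100 for 25. Intensities of different probes are not compared as amounts, since probes differ in how well they bind.

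Genes of lymphocytes and myeloid cells lay on both sides of the noise threshold. In whole liver, fewer cells of a type and less RNA per cell cannot be told apart. Cd3e, a subunit of the T cell receptor complex, was above noise in 5 of 5 heterozygous and 2 of 5 wildtype livers, at 44.1 ± 15.0 and 28.6 ± 23.9 (SD). Cd72, of B cells, and Fcgr3, of macrophages, passed on 10 arrays, Cd52 on 9, and Cd53, Cd160 and Cd180 on 8 each. Cd247, of the same complex as Cd3e, passed on 4 arrays, and Cd8b1, of cytotoxic T cells, on 0. Itgam, the integrin chain of macrophages and granulocytes, passed on 0 arrays and Itgal, its counterpart on lymphocytes, on 4. Among chemokines Ccl2, which draws monocytes, passed on 1 array, and Cxcl2, Cxcl3 and Cxcl12 on 0. The receptor genes Ccr9, Il7r and Il2ra passed on 0 arrays. Cd36, the fatty acid transporter, was also at 0 arrays, which says only that this probe gave no clear signal. Il6ra passed on 3 arrays. It had 104.2 in heterozygous replicate 1 and 102.0 in wildtype replicate 1, whose arrays stood apart. It had 44.4 in wildtype replicate 4 and at most 23.2 in the other livers.

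Other genes that did not pass are given by class, with the number of arrays above noise where it was not 0. Among surface molecules they were Cd200r2 (4), Cd209b, Cd320 and Cd55b (3 each), Cd109, Cd209c, Cd300c, Cd40 and Cd44 (1 each), and Cd177, Cd226, Cd24a, Cd300lb, Cd300ld3 and Cd69. Among integrin genes and their partners they were Itga11, Itga2b, Itga4, Itga6, Itgav, Itgb1bp1 and Itgbl1. Chemokines and their receptors added Cxcl14 and Cxcr2 (4 each), Ccl1 (1) and Ccl28. Interleukins added Il12a (3), Il17b, Il1a, Il1f5, Il21, Il22 and Il7, and their receptors Il17ra (2), Il27ra (1), Il1rl1 and Il1rl2. Interferon genes added Gbp5 (4), Ifit3 (3), Oas1g, Gbp4, Gbp6, Gbp9, Ifi202b, Ifi209, Ifi44l, Ifit1bl2, Ifitm7 and Oas3. Irf2bpl, which matched by letters and is not itself an IRF factor, did not pass either. Ifit3 had 74.8 in heterozygous replicate 1 and 65.1 in wildtype replicate 1, whose arrays stood apart, and 40.2 in wildtype replicate 4. Of the 59 genes 0 were above noise in a single group, but the 5 livers of 1 group could carry a gene over the filter. Cd3e was above noise in 5 heterozygous and 2 wildtype livers and Cd53 in 5 and 3. Itgb4, Cd160 and Cd55 were above noise in 3 heterozygous and 5 wildtype livers each. Among genes that did not pass, Cxcr2 was above noise in 0 heterozygous and 4 wildtype livers, Cd55b in 0 and 3, and Cd320 in 3 and 0.

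Across the 59 genes above noise, no difference between heterozygous and wildtype liver was called. The comparison asked which transcripts differ when 1 copy of Gyk is altered. limma with Benjamini-Hochberg adjustment over all 10225 probes above noise gave 0 called members at an adjusted p under 0.05, as it did over all probes (0%). At an unadjusted p under 0.05 stood 5 members, 8.47% of the 59, against 11.9% of all probes above noise. These were Cd151, Cd82 and Ifitm1, with higher values in heterozygous liver, and Itgb4 and Cd81, with lower values. Groups did not overlap for 1 member, 1.69%, against 1.77% of all probes above noise.

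The log2 changes of the 59 members ran from -0.41 to 0.37 with a median of 0.02, against a median of -0.01 over all probes above noise. Values were higher in heterozygous liver for 36 of 59 members and lower for 23, a share of 61.0% higher against 46.5% of all probes. With arrays scaled by their medians 26 of 59 were higher (44.1%), without normalization between arrays 29 (49.2%), and without wildtype replicate 1 23 (39.0%). The share of all probes that were higher is not given for these 3 settings, in which the whole array moved too. The median log2 change was then -0.0192 in members against -0.05 over all probes with median scaling, and -0.0045 against -0.035 without normalization. It was -0.0303 against -0.028 without wildtype replicate 1. The 95% interval of a member's log2 change reached a median of 0.29 to each side, so changes smaller than this could not be told from 0 for many of them. The number at an unadjusted p under 0.05 was 13 without wildtype replicate 1, 22.0% of members against 23.0% of all probes. It was 11 without wildtype replicate 2 (18.6% against 14.0%) and 8 without heterozygous replicate 3 (13.6% against 9.75%). It was 2 without heterozygous replicate 2 (3.39% against 10.1%), and 3 (5.08%) without heterozygous replicate 4 (against 9.40%) or wildtype replicate 3 (9.72%), 4 (7.30%) or 5 (7.42%). Blocked on the number that opens each sample title (the title block), it was 4, 6.78% of members against 4.95% of all probes. Only wildtype replicates 3, 4 and 5 carry title number 7, so the genotype difference in the title block rests on wildtype replicates 1 and 2. Of these, wildtype replicate 1 is an array that stood apart, which limits every title block value given below. The members' share thus lay on either side of that of the array, depending on the livers and the block used.

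**Figure D2:**
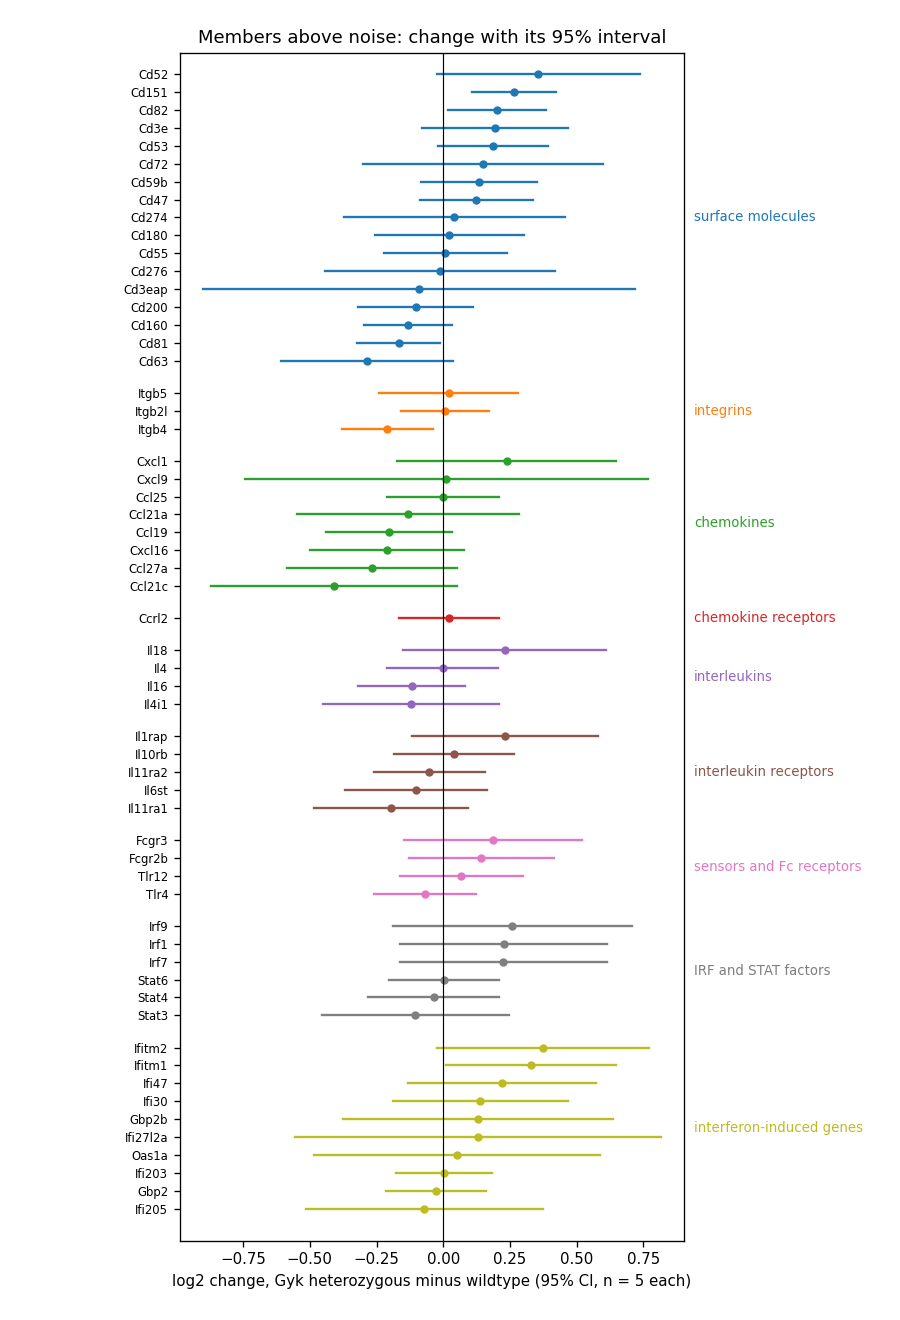
Points give the log2 change of 58 of the 59 members (heterozygous minus wildtype, normalized values), lines its 95% confidence interval from limma, and colours the role. The intervals of 53 of them span 0, and those of Cd151, Cd82, Ifitm1, Itgb4 and Cd81 do not.

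Among the surface molecules, the 3 smallest p-values belonged to the tetraspanins Cd151, Cd82 and Cd81. All 5 tetraspanin genes above noise, chosen as a group after their values were seen, were among the 12 members with the smallest p: 3 had higher and 2 had lower values in heterozygous liver, and none passed the adjusted test. Tetraspanins are membrane proteins that gather integrins and receptors into patches.

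Cd151, which binds laminin-receptor integrins, had intensities of 653.4, 659.4, 679.1, 690.9 and 687.3 in heterozygous livers, against 597.6, 603.2, 555.5, 470 and 512.9 in wildtype livers. Every heterozygous liver lay above every wildtype liver. Its log2 change was 0.27 with a 95% interval of 0.11 to 0.42, an unadjusted limma p of 0.0034 and an adjusted p of 0.332. It ranked 89 by p among all probes above noise, and its spread between mice was at percentile 2.96 of those probes. With array weights its adjusted p was 0.0403, the only member called in any setting, where 4.01% of all probes were called. Without heterozygous replicate 1 and wildtype replicate 1 its log2 change was 0.29, and 0.19 with the title block.

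Cd82, a tetraspanin also known as a suppressor of metastasis, had 1892.1, 1472.4, 1724, 1743.3 and 1905.9 in heterozygous livers, against 1677.6, 1729.8, 1325.2, 1631.3 and 1479.3 in wildtype livers. The groups overlapped, heterozygous replicates 2 and 3 lying within the wildtype range. Its log2 change was 0.20 (95% interval 0.02 to 0.39) with an adjusted p of 0.387. Cd53, a tetraspanin of leukocytes, was dim, at 85.8, 42, 34.5, 54.8 and 40.2 in heterozygous livers and 33.2, 18.4, 37.4, 38.8 and 47.6 in wildtype livers. Only heterozygous replicates 1 and 4 exceeded all wildtype values, and it passed the noise threshold in 5 heterozygous and 3 wildtype livers. Its log2 change of 0.19 was 0.11 without heterozygous replicate 1 and wildtype replicate 1.

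Cd81 had the opposite sign, at 10344.6, 8718, 10156.5, 9397.9 and 10374.6 in heterozygous livers, against 12018.8, 10574.1, 11045.9, 12089.5 and 11838.5 in wildtype livers. On this scale, before normalization, all heterozygous values lay below all wildtype values, while the normalized values overlapped. Its log2 change was -0.17 (95% interval -0.32 to -0.01) with an adjusted p of 0.390. Cd63, a tetraspanin of lysosomes and exosomes, had 425.8, 382.8, 232.6, 336.5 and 267.7 in heterozygous livers and 324.2, 489.2, 357.3, 438 and 447.5 in wildtype livers. Its groups overlapped, with a log2 change of -0.29 that was -0.44 without heterozygous replicate 1 and wildtype replicate 1 (adjusted p 0.465 and 0.0973). With the title block the log2 changes were 0.12 for Cd82, 0.33 for Cd53, -0.09 for Cd81 and -0.21 for Cd63, so each sign was kept.

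**Figure D3:**
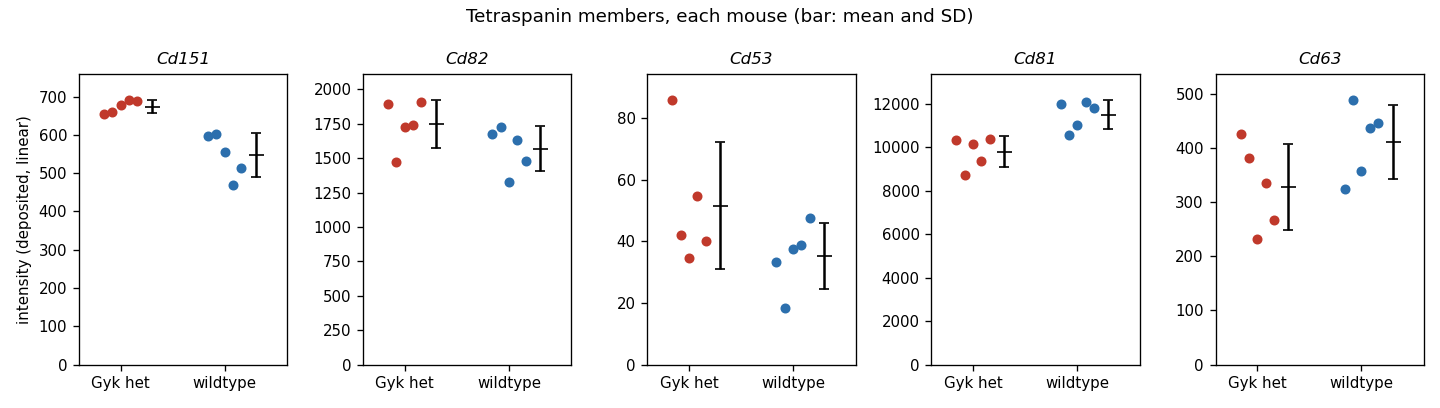
Points give the deposited intensity (linear axis from 0) of each mouse for 5 tetraspanin genes, heterozygous left and wildtype right, with the mean and SD beside them. Cd151 separates the groups upward, Cd81 lies lower in heterozygous liver, and Cd82, Cd53 and Cd63 overlap.

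Of the other surface molecules, Cd52, a small glycoprotein of lymphocytes and monocytes, had the highest log2 change at 0.36 (adjusted p 0.441). Its intensities were 148, 81.7, 45.1, 168.1 and 59.8 in heterozygous livers, against 40.4, 75.7, 62.6, 30.7 and 62.6 in wildtype livers. Heterozygous replicates 1, 2 and 4 lay above every wildtype liver and the other 2 within the wildtype range. The log2 change of Cd52 was 0.23 without heterozygous replicate 4. Cd47, the signal that keeps macrophages from engulfing a cell, was at 1452.5 ± 115.2 in heterozygous and 1375.7 ± 184 in wildtype liver (SD, n = 5 each), a log2 change of 0.12 that was 0.08 without wildtype replicate 1. The largest spread between mice belonged to Cd3eap, with a pooled SD of 0.67 on the log2 scale, and its intensity was 137.7 and 120.8 on the 2 arrays that stood apart and 287.7 to 733.4 on the other 8.

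Integrin genes were mostly at the noise. Itgb4, the beta chain of the laminin receptor that anchors epithelium, had 26.6, 17.5, 36.9, 29.2 and 34.3 in heterozygous livers, against 73.6, 53.3, 38.4, 36.6 and 61 in wildtype livers. Wildtype replicate 4 lay just below the highest heterozygous value and the other 4 wildtype livers lay above all heterozygous ones. Its log2 change was -0.21 (95% interval -0.38 to -0.04, adjusted p 0.348), but it passed the noise threshold in only 3 heterozygous livers, and the added constant shrinks changes of such dim probes. Itgb5, a vitronectin receptor chain, was at 778.6 ± 126 in heterozygous and 770.2 ± 90.3 in wildtype liver (SD, n = 5 each), and its log2 change of 0.02 turned to -0.02 with median scaling. Itgb2l was near the noise, at 26.5 ± 7.27 and 29.9 ± 9.69.

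Chemokine genes were lower in heterozygous liver for 5 of 8 genes above noise, with a median log2 change of -0.17, and none passed the test. The 3 with higher values were 37.5% of the class, against 46.5% of all probes above noise. Without heterozygous replicate 1 or without wildtype replicate 1, 7 of 8 were lower. With the title block 5 of 8 were lower, with a median of -0.09. Of the 4 chemokine genes above the 0.01 point of noise on all 10 arrays, 2 were lower and 2 higher. Ccl21c and Ccl21a, which code for nearly identical ligands of the receptor CCR7, and Ccl19, its other ligand, direct T cells and dendritic cells into lymphoid tissue. Ccl21c had 139.3, 33, 67.5, 29.3 and 47.5 in heterozygous livers, against 136.2, 57, 137.7, 206.3 and 59.5 in wildtype livers. Heterozygous replicate 1 was as high as the upper wildtype livers, and wildtype replicates 2 and 5 as low as the heterozygous ones. The log2 change of Ccl21c was -0.41 (95% interval -0.87 to 0.05, adjusted p 0.467).

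Ccl19 had 118.9, 50.6, 43, 34.8 and 38.8 in heterozygous livers, against 88.3, 88.7, 73.2, 65.5 and 82.2 in wildtype livers. Heterozygous replicate 1 was the highest of all and the other 4 lay below every wildtype liver. The log2 change of Ccl19 was -0.20 (adjusted p 0.484), and -0.31 (adjusted p 0.0760) without heterozygous replicate 1 and wildtype replicate 1. Ccl27a, a ligand of CCR10, had 188.9, 163.8, 241.3, 264.4 and 235.5 in heterozygous livers, against 223.7, 308.3, 251.2, 376.3 and 230.4 in wildtype livers. Its groups overlapped, with a log2 change of -0.27 (adjusted p 0.488). Without wildtype replicate 4 the log2 change was -0.26 in Ccl21c and -0.17 in Ccl27a.

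These chemokine genes lie on chromosome 4 together with the genes of the interleukin-11 receptor, per the gene table of assembly GRCm38.p6. In it Il11ra1 neighbours Ccl27a, and Ccl19 neighbours Ccl21a, with 0 genes between them, while Ccl21c is listed apart from them. The position was looked up after the values were seen. All 6 of Ccl21c, Ccl27a, Il11ra1, Ccl19, Ccl21a and Il11ra2 had lower mean values in heterozygous liver, from -0.41 in Ccl21c to -0.05 in Il11ra2, and 0 of 6 had an adjusted p under 0.05. With the title block 3 of 6 were lower, and Il11ra1, Il11ra2 and Ccl21a had log2 changes of 0.01, 0.09 and 0.10. Without heterozygous replicate 1 and wildtype replicate 1 all 6 were lower. Probes of near-identical copies such as Ccl21a and Ccl21c, or Il11ra1 and Il11ra2, cannot be told apart here.

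**Figure D4:**
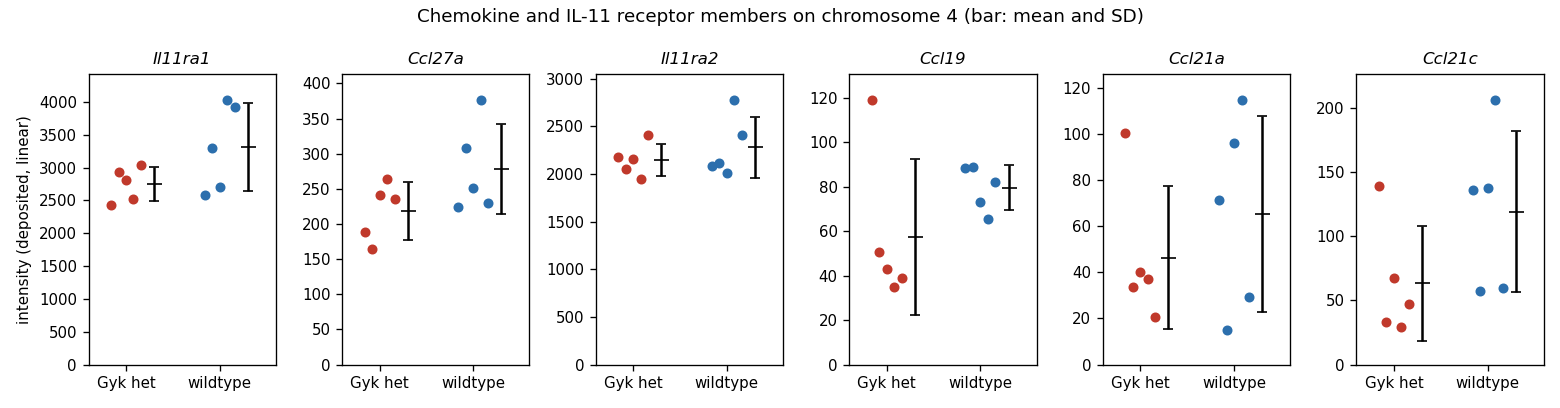
Points give the deposited intensity (linear axis from 0) of each mouse for 6 genes on chromosome 4, heterozygous left and wildtype right, with the mean and SD beside them. In Ccl19, Ccl21a and Ccl21c heterozygous replicate 1 lies far above the other 4 heterozygous livers.

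Cxcl1, which draws neutrophils, was at 670 ± 113.2 in heterozygous and 564.1 ± 165 in wildtype liver (SD, n = 5 each), a log2 change of 0.24 (adjusted p 0.648). The change of Cxcl1 was 0.60 with the title block (adjusted p 0.910), 0.13 without wildtype replicate 1 and 0.38 without wildtype replicate 3. Cxcl16, a chemokine of sinusoids that holds natural killer T cells, was at 181.1 ± 32.0 and 221.5 ± 40.2, a log2 change of -0.21 (limma adjusted p 0.554). The change of Cxcl16 was -0.33 without wildtype replicate 1 (limma adjusted p 0.06) and -0.02 with the title block. Ccl25 had a log2 change of 0.00. The only chemokine receptor gene above noise was Ccrl2, a non-signalling receptor, at 38.9 ± 12.8 in heterozygous and 39.4 ± 5.17 in wildtype liver.

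Of the interleukin receptors 2 of 5 genes above noise were higher in heterozygous liver and 3 lower, of the interleukins 1 of 3 (Il18) was higher and 2 (Il16 and Il4) lower, and none passed the test. With the title block 4 of the 5 receptors were higher, and without wildtype replicate 4, 3 of 5. Il11ra1, the receptor chain of interleukin-11, was at 2747.4 ± 261.5 in heterozygous and 3307.1 ± 671 in wildtype liver (SD, n = 5 each), a log2 change of -0.20 that was -0.13 without wildtype replicate 4, and Il11ra2 at 2147.4 ± 169.3 and 2277 ± 317. Il1rap, the accessory chain that interleukin-1 and interleukin-33 receptors share, was at 1148.2 ± 176.5 in heterozygous and 1002.9 ± 303 in wildtype liver, a log2 change of 0.23 that was -0.06 with the title block and 0.37 without wildtype replicate 1. Il6st, the shared signal chain of the interleukin-6 family, had a log2 change of -0.10 and Il10rb 0.04. Il18, a cytokine of Kupffer cells, was at 632.3 ± 55.9 in heterozygous and 546.7 ± 169 in wildtype liver, where replicates 1 and 4 were low at 417.4 and 316.1. The log2 change of Il18 was 0.23, and 0.14 without wildtype replicate 1 or 0.09 without wildtype replicate 4. Il16 had a log2 change of -0.12, Il4 of -0.00 and the oxidase Il4i1 of -0.12, and with the title block Il16 and Il4i1 had 0.04 and 0.12.

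The Fc receptors of macrophages and endothelium had log2 changes of 0.14 in Fcgr2b, the inhibitory receptor, and 0.19 in Fcgr3, an activating one. Fcgr2b was at 516.8 ± 80.6 in heterozygous and 456 ± 78.5 in wildtype liver, and Fcgr3 at 116.2 ± 28.0 and 92.5 ± 35.9 (SD, n = 5 each). With 1 liver left out these changes ran from 0.07 to 0.22 in Fcgr2b and from 0.11 to 0.30 in Fcgr3. They were 0.02 in Fcgr2b and 0.15 in Fcgr3 with the title block. Of the 4 sensor and Fc receptor genes above noise 3 were higher in heterozygous liver, and 2 with the title block. Tlr4, the sensor of bacterial endotoxin, was at 49.5 ± 4.98 in heterozygous and 60.3 ± 13.9 in wildtype liver, a log2 change of -0.07 that was -0.01 without wildtype replicate 2 and -0.11 without wildtype replicate 4, and Tlr12 was near the noise. Tlr1, Tlr8, Tlr11 and Tlr13 did not pass on more than 2 arrays.

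Interferon-induced genes had higher mean normalized values in heterozygous liver for 8 of 10 genes above noise (80.0%), with a median log2 change of 0.13. IRF and STAT factors had them for 5 of 7 (71.4%), with a median of 0.03, against 46.5% of all probes above noise. The 8 include Ifi203 at a log2 change of 0.0031, whose mean intensity was lower in heterozygous liver, 68.6 against 72.2. None of these 17 genes passed the test. Without wildtype replicate 1 the interferon-induced genes were higher for 4 of 10, with a median of -0.0042, and without both arrays that stood apart for 5 of 10, with a median of 0.002. Without heterozygous replicate 4 they were higher for 6 of 10, with a median of 0.0084. IRF and STAT factors were higher for 3 of 7 without heterozygous replicate 1, without wildtype replicate 4, without both arrays that stood apart or with median scaling. With the title block 9 of 10 interferon-induced genes were higher, with a median of 0.127, and 6 of 7 IRF and STAT factors, with a median of 0.12. Without heterozygous replicate 3, wildtype replicate 3 or wildtype replicate 5, 9 of 10 interferon-induced genes were higher. The direction of both classes thus depended on the livers and the settings used. Ifitm1 and Ifitm2, neighbouring genes of membrane proteins that block virus entry, had the smallest p-values.

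Ifitm1 had 13368, 9769.4, 9279, 11823.6 and 11486.5 in heterozygous livers, against 11600.1, 10695.2, 8492.8, 6954 and 8790.8 in wildtype livers. The groups overlapped, with wildtype replicates 1 and 2 inside the heterozygous range. The log2 change of Ifitm1 was 0.33 (95% interval 0.01 to 0.65, adjusted p 0.402), and 0.13 with the title block. Ifitm2 had 3863.7, 3287.8, 3873.9, 4642.5 and 4571.5 in heterozygous livers, against 4363.7, 4240.3, 2962.1, 2054.6 and 2820.1 in wildtype livers. Again wildtype replicates 1 and 2 lay among the heterozygous livers and wildtype replicates 3, 4 and 5 below them. Those 3 wildtype mice carry the title number 7, which no heterozygous mouse has, and with the title block the log2 change of 0.37 in Ifitm2 (adjusted p 0.439) was 0.03. Without wildtype replicate 4 the change of Ifitm2 was 0.225. The title number and the genotype cannot be told apart in those 3 mice.

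Some of these genes varied widely between mice of the same genotype and others little. Ifi27l2a, an interferon-induced mitochondrial protein, had 1071.1, 653.2, 343, 1520.1 and 567.3 in heterozygous livers, against 469.5, 838.6, 713.3, 729.3 and 700.1 in wildtype livers. Its pooled SD of 0.57 on the log2 scale was at percentile 95.4 of all probes above noise, and its log2 change between groups was 0.13 with an interval of -0.56 to 0.82. Cxcl9, a chemokine induced by interferon-gamma that draws T cells, had 1432.3, 429.3, 365.5, 747.6 and 592 in heterozygous livers, against 503.3, 1220.1, 467.5, 409.6 and 876 in wildtype livers. High mice occurred in both groups, the pooled SD of 0.63 was at percentile 96.2, and the log2 change was 0.01 (95% interval -0.74 to 0.77).

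The other genes given here were chosen after their values were seen. Oas1a, a sensor of double-stranded RNA, had 178.7, 202.3, 100.9, 371.9 and 152.5 in heterozygous livers, against 108.2, 309.4, 179.3, 137.9 and 196.8 in wildtype livers. Irf7, the factor that amplifies type I interferon, had 334.2, 270.5, 163.8, 471.4 and 258.1 in heterozygous livers, against 235.7, 306.5, 208.7, 184.2 and 214.6 in wildtype livers. Gbp2b, a guanylate-binding protein that attacks vacuoles of microbes, had 145.9, 50.8, 34.2, 151.4 and 67.5 in heterozygous livers, against 12.9, 104.7, 122.2, 44.7 and 77.6 in wildtype livers. In each of these 3 genes heterozygous replicate 4 was the highest and heterozygous replicate 3 the lowest of its group.

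Over the 17 interferon-induced, IRF and STAT genes above noise, heterozygous replicate 4 lay above the mean of its group in 15 and was the highest of its group in 12. Wildtype replicate 2 lay above the mean of its group in 15 and was the highest in 11. Heterozygous replicate 3 lay below in 16, wildtype replicate 1 in 13 and wildtype replicate 4 in 12. The median deviation from the group mean was 0.25 in heterozygous replicate 4 and -0.30 in heterozygous replicate 3, and 0.28 in wildtype replicate 2, -0.19 in wildtype replicate 1 and -0.17 in wildtype replicate 4, on the log2 scale. Relative to the same median over all probes above noise these values were 0.23, -0.31, 0.26, -0.13 and -0.18.

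Kupffer cell markers were highest and lowest in the same livers, but did not follow the order in all. The summed intensity of the 3 of 10 listed markers with a probe (Csf1r, C1qa and C1qb, all above noise) was 2401.3 in heterozygous replicate 4 and 1196.2 in heterozygous replicate 3, the highest and lowest of their group. It was 2075.9, 1595.2 and 1391.8 in heterozygous replicates 1, 2 and 5, whose median deviations of the 17 genes were -0.05, -0.03 and 0.02, the opposite order. Csf1r alone was highest in heterozygous replicate 1, at 303.1, against 231.9 in heterozygous replicate 4. The sum was 2573.1 in wildtype replicate 2, 1012.2 in wildtype replicate 4 and 986.2 in wildtype replicate 1, against 1321.9 and 1438 in wildtype replicates 3 and 5. Its range was 1196.2 to 2401.3 in heterozygous and 986.2 to 2573.1 in wildtype liver. Of the T and natural killer cell list 1 gene had a probe, Cd3e, whose highest values were 67.2 in heterozygous replicate 1 and 65.4 in wildtype replicate 2. The part of these cells in the variation between mice was not tested. Wildtype replicate 1 also had the highest noise threshold, 41.2, against 24.7 in heterozygous replicate 4 and 31.2 in wildtype replicate 2.

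**Figure D5:**
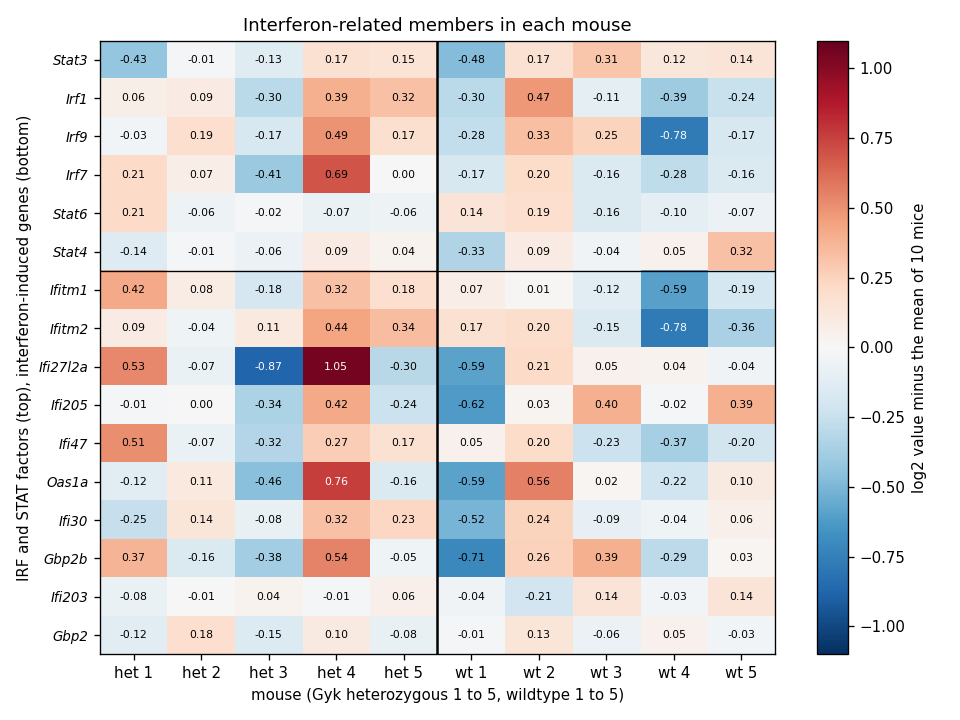
Colours and numbers give the normalized log2 value of 16 of the 17 genes in each mouse minus its mean over 10 mice, heterozygous left and wildtype right of the line. Heterozygous replicate 4 and wildtype replicate 2 are mostly red and heterozygous replicate 3 and wildtype replicates 1 and 4 mostly blue.

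The class of IRF and STAT factors was above noise for 7 of 9 genes, and none passed the test. The 9 include Irf2bpl, which matched by letters and is not itself an IRF or STAT factor. Stat3, the main factor of interleukin-6 signals in liver, was at 2842.5 ± 436 in heterozygous and 3170.3 ± 538 in wildtype liver (SD, n = 5 each), a log2 change of -0.10, and a second Stat3 probe gave -0.14. Irf1, induced by interferon-gamma, was at 861 ± 168.4 in heterozygous and 744.2 ± 235 in wildtype liver, and Irf9, the DNA-binding part of the type I interferon complex, at 724.9 ± 135.8 and 611 ± 204, with log2 changes of 0.23 and 0.26 (adjusted p 0.647 and 0.649). The change of Irf1 was 0.37 without wildtype replicate 2 and 0.08 with the title block. The change of Irf9 was 0.10 without wildtype replicate 4, 0.17 without heterozygous replicate 4 and 0.14 with the title block.

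Promoters of interferon-induced genes are shown because many of them hold the interferon-stimulated response element. Its core, GAAA, any 2 bases and GAAA again, was searched on both strands in the 250 bases before each gene start, in the RefSeq promoters of build GRCm38.p6. It was found for 11 of 18 interferon-induced genes with a promoter in the table (61.1%), for 18 of 102 members (17.6%) and for 3.46% of all 27025 genes. The gamma-activated site TTCNNNGAA was found for 3 of the 18 (16.7%), among them Oas1a, and for 8.13% of all genes, and among the IRF and STAT factors for Irf1. A match is a description of letters in this window.

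The promoters of the 6 interferon-induced genes above noise that hold the core are those of Gbp2 at chr3:142620413-142620662 (+ strand), Gbp2b at chr3:142594597-142594846 (+ strand), Ifi203 at chr1:173942493-173942742 (- strand), Ifi205 at chr1:174031756-174032005 (- strand), Ifitm2 at chr7:140955962-140956211 (- strand), Oas1a at chr5:120907526-120907775 (- strand). Each is printed 5′ to 3′ in the direction of its gene, and capitals mark the core on either strand. In Oas1a 2 overlapping matches begin 20 and 14 bases before the gene start, in Ifi203 the core begins at 35, in Ifitm2 at 46, in Gbp2 at 59, in Ifi205 at 134 and in Gbp2b at 137. Oas1a and Gbp2b were among the genes that varied most between mice, with pooled SDs of 0.44 and 0.41, while Ifi203 and Gbp2 had 0.11 and 0.12 at mean intensities of 70.4 and 31.7. Ifi205 had 0.36 and Ifitm2 0.32.
Gbp2: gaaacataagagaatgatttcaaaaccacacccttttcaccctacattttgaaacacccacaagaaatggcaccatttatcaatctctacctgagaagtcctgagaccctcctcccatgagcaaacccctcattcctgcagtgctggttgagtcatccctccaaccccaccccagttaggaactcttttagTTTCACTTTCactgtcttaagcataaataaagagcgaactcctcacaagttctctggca
Gbp2b: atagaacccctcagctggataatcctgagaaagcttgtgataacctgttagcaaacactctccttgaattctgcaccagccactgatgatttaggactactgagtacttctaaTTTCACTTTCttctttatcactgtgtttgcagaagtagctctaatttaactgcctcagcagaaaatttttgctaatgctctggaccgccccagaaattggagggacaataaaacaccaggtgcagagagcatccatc
Ifi203: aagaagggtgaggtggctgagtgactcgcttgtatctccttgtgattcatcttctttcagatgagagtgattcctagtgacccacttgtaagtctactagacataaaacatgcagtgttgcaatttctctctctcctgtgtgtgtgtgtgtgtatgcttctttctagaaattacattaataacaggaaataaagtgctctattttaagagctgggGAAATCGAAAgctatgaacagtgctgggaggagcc
Ifi205: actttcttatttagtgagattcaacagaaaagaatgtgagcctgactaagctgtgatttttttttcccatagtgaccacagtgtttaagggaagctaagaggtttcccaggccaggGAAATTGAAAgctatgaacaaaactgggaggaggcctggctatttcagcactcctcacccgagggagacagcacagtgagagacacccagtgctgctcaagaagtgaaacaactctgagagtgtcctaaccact
Ifitm2: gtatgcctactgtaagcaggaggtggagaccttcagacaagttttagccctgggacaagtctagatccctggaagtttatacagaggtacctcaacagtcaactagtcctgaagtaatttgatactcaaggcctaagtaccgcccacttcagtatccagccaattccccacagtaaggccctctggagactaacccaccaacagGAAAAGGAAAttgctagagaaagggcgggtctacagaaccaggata
Oas1a: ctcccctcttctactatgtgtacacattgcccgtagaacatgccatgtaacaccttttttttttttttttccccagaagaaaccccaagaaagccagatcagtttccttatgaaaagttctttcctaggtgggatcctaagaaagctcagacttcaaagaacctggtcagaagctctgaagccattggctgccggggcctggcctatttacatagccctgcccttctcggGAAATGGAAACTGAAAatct

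Other genes of the interferon and antigen presentation pathway, from a list outside the rule, had a probe above noise for 11 of 29 genes. Heterozygous values were higher in 7 of these and lower in 4, with a median log2 change of 0.11, and 0 passed the adjusted test. They were read with all 10 arrays and without the title block, so their dependence on single livers was not tested. An unadjusted limma p under 0.05 was seen for 2 of the 11, against 11.9% of all probes above noise. Those 2 were the interferon-gamma receptor chain Ifngr2, at 774.5 ± 89.9 in heterozygous and 584.9 ± 135 in wildtype liver (log2 change 0.37, adjusted p 0.342), and the kinase Jak2, at 92.7 ± 37.4 and 51.5 ± 41.0 (0.40, adjusted p 0.384) (SD, n = 5 each). The immunoproteasome genes Psmb8 and Psmb10 had log2 changes of 0.18 and -0.11, and the class I gene H2-K1 had 0.03. Of 9 genes of NF-kB signalling 2 were above noise, Irak1 at -0.02 and Traf6 at -0.09.

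Marker lists of the cells a liver sample can hold were read in the same fit, and none of their genes had an adjusted p under 0.05. The Kupffer markers were higher in heterozygous liver for 3 of 3 genes, with log2 changes of 0.41 in Csf1r (adjusted p 0.339), 0.36 in C1qb and 0.12 in C1qa. Their sums overlapped, at 1196.2 to 2401.3 in heterozygous and 986.2 to 2573.1 in wildtype liver. Of the endothelial markers 2 of 3 were higher, with sums of 4308.5 to 6047.4 in heterozygous and 4594.1 to 5761.7 in wildtype liver. The B cell marker Ighm had a log2 change of -0.19, with 346.9 to 1062.3 in heterozygous and 359.8 to 894.1 in wildtype liver, and Jchain was below 0 on average in both. The neutrophil marker S100a9 had 0.21, with 39.5 to 94.3 in heterozygous and 14.1 to 60 in wildtype liver, and Mpo and Elane did not pass. Both red cell markers were lower, with sums of 7172.3 to 12740 in heterozygous and 7893.1 to 31945.4 in wildtype liver. Of the hepatocyte markers 1 of 2 was higher, and of the stellate cell markers 1 of 3, with Dcn at -0.30 (adjusted p 0.394). The platelet marker Itga2b and the bile duct marker Krt19 did not pass. The part of these cells in the members' values was not tested.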

How the data were processed

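Liver RNA of 10 mice was measured on Illumina Mouse Ref-8 V1 bead arrays, 5 per group, grouped by the labelled genotype. The deposited values are linear intensity with a background already subtracted (31.1% to 33.1% below 0), made with BeadStudio 1.5.1.3 per the submitters' processing notes. Whether the authors normalized them is not given in the sources used here. A second table of 80 columns, named by chip and position, was not used, since no label ties a position to a mouse.

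A constant of 95.2 was added to all values (lowest value then 16) before log2 and quantile normalization. Probes above the one-sided 0.05 point of array noise (the root mean square of values below 0) on at least 5 of 10 arrays were kept, 10225 of 24048. They were tested with limma 3.58.1 in R 4.3.3 (lmFit and eBayes, two-sided, Benjamini-Hochberg over all kept probes), after tests on simulated data. A printed mean intensity is before normalization, and a log2 change is on the normalized scale, where the added constant understates changes of dim probes. The number of arrays limits the precision. The labels do not say that samples are separate animals beyond their titles, so p-values measure the spread between these samples.

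Probes were named where their name holds an Entrez Gene ID of at least 11000. This is an inference, and 8884 of 9523 such probes matched a mouse gene of RefSeq (GRCm38.p6). Probes of near-identical genes (Ifitm, Gbp2 and Gbp2b, Ifi203 and Ifi205, Oas1a and Oas1g, Cd55 and Cd55b) may share signal. Named genes were the 12 with the smallest p, the 3 brightest of each of 9 classes and those without overlap, 31 in all. Other genes were named after their values were seen. Members and lists were chosen with earlier results of these data known. Alternatives covered background, lowest value, normalization, filter, title number, array weights and left-out arrays. A few member genes counted in the totals are not reported here by name.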

Additional observations from a re-analysis of the deposited data

Results flagged for a closer look

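In 6 of 118 groups of 5 livers, 1 liver stood far from the other 4 by Dixon's test at its 95% level, and chance gives about 1 in 20. Cxcl16 was lowest in wildtype replicate 1, at 151.4 against 230.6 to 251.9 in the other wildtype livers. Il6st was lowest there too, at 313.3 against 352.8 to 376.8, and so was Stat3, at 2215.3 against 3304.5 to 3471.7. Irf7 was highest in wildtype replicate 2, at 306.5 against 184.2 to 235.7. Cd3eap was lowest in heterozygous replicate 1, at 137.7 against 345.4 to 470.7 in the other heterozygous livers, and Stat6 was highest there, at 171.6 against 102.7 to 109.2. All of these but Irf7 fell on the arrays of heterozygous replicate 1 or wildtype replicate 1, which stood apart from the other 8 over all probes.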

How the results depend on the processing

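Of 59 members, 0 were called in every setting except array weights, where 1 was, Cd151 (log2 change 0.28, adjusted p 0.0403, against 0.0403 to 0.9994 over its alternatives). Over all 10225 probes, 410 were called with array weights, 435 without wildtype replicate 1 and 206 without heterozygous replicate 1 and wildtype replicate 1. The members at an unadjusted limma p under 0.05, 5 as reported, are given with their share against that of all probes in the same setting. They numbered 3 (5.08% against 12.6%) without normalization between arrays and 8 of 128 (6.25% against 7.95%) without the filter. Title numbers 1 and 2 only, which leave wildtype replicates 1 and 2, gave 3 (5.08% against 3.43%). Array weights gave 12 (20.3% against 22.9%). Leaving out heterozygous replicate 1 and wildtype replicate 1 gave 9 (15.3% against 20.7%). With 1 liver left out the members at this threshold numbered 2 to 13. Members higher in heterozygous liver, 36 as reported, numbered 64 of 128 without the filter and 23 to 39 with 1 liver left out, 23 being without wildtype replicate 1. The median log2 change stayed between -0.04 and 0.10.

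Changes of sign were seen in genes whose intervals span 0, and the cause was not tested. With median scaling the log2 change was -0.0192 in Ccrl2, -0.0281 in Cxcl9, -0.0415 in Itgb2l and -0.0171 in Itgb5. Without normalization it was -0.0105 in Ccrl2, -0.0045 in Cxcl9 and -0.0379 in Itgb2l. With the title number as a block it was -0.169 in Cxcl9, 0.0106 in Il11ra1, 0.0908 in Il11ra2, 0.0407 in Il16, -0.0617 in Il1rap, 0.119 in Il4i1, -0.023 in Itgb2l and 0.148 in Stat3. With title numbers 1 and 2 only it was -0.209 in Cxcl9, 0.0892 in Il11ra2, 0.0342 in Il16, -0.0262 in Il1rap, 0.0832 in Il4i1, -0.0177 in Itgb2l and 0.104 in Stat3. With array weights it was -0.016 in Ccrl2, -0.163 in Cxcl9 and -0.0036 in Itgb5. Without heterozygous replicate 1 and wildtype replicate 1 it was -0.345 in Cxcl9, -0.117 in Ifi27l2a and -0.055 in Itgb5. With 1 liver left out the ranges were -0.0121 to 0.0777 in Ccrl2, -0.254 to 0.214 in Cxcl9, -0.116 to 0.365 in Ifi27l2a, -0.0918 to 0.0163 in Il11ra2, -0.0191 to 0.0365 in Itgb2l and -0.0403 to 0.112 in Itgb5. No paired analysis was possible because the labels give the groups no shared replicate numbers beyond the leading title number. Of the 59 members 25 had a mean intensity under 100, where signal over background limits what can be seen.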
